A study of Mus musculus with 49 samples.

Results

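The interleukin-1, interleukin-18 and interleukin-33 system was followed through 10 genes, taken by their Entrez IDs from the 24475 gene IDs of the skin and colon count tables: the ligands Il1a, Il1b, Il18 and Il33, the antagonist Il1rn, the receptors Il1r1, Il1r2, Il18r1 and Il1rl1, and the protease Casp1. RNA sequencing had been run on 49 libraries from DITRA-like mice, a model named for deficiency of the interleukin-36 receptor antagonist, whose alleles the labels do not give. Skin came from mice given imiquimod (IMQ), a Toll-like receptor agonist cream that causes psoriasis-like inflammation, and colon from mice given dextran sulfate sodium (DSS), which injures the colonic epithelium. The skin groups were IMQ with anti-human IL-36R antibody (7 libraries), IMQ with anti-mouse IL-12p40 antibody (7), IMQ with PBS (6) and water with PBS (3). The colon groups were DSS with anti-human IL-36R (8), DSS with anti-mouse IL-12p40 (7), DSS with PBS (6) and water with PBS (5). All 8 groups shared the DITRA model and a background of 75% C57BL/6NTac and 25% 129S6/SvEvTac, and no group without the model is included here. The labels give no age, sex, dose or day, and do not say whether libraries are separate animals, so p-values measure only the spread between these libraries, which may be technical.

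The interleukin-1 family signals through receptors that share a cytoplasmic domain with Toll-like receptors and recruit the adaptor MyD88. Interleukin-1 alpha and interleukin-33 are stored in barrier cells such as keratinocytes and released on damage, whereas the precursors of interleukin-1 beta and interleukin-18 are cut by caspase-1 inside inflammasomes. Signalling is held back at several levels, by the receptor antagonist encoded by Il1rn, by the decoy receptor encoded by Il1r2, and by soluble forms of the interleukin-33 receptor ST2 encoded by Il1rl1. In skin the system is known for starting inflammation after injury, and in gut for both epithelial repair and colitis.

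The genes lie in a few clusters on the mouse assembly GRCm38.p6, with coordinates from RefSeq. Il1r2 (chr1:40084692-40125230), Il1r1 (chr1:40222480-40316201), Il1rl1 (chr1:40404864-40465418) and Il18r1 (chr1:40465552-40500854) follow each other on the plus strand, and 133 bases separate the end of Il1rl1 from the start of Il18r1. Il1a (chr2:129299609-129310186) and Il1b (chr2:129364569-129371164) are neighbours on the minus strand, and Il1rn (chr2:24336860-24351491) lies far from them on the same chromosome. Casp1 (chr9:5298517-5307281), Il18 (chr9:50554700-50581841) and Il33 (chr19:29925113-29960718) are on the plus strand of their chromosomes. The Entrez IDs are 16175 for Il1a, 16176 for Il1b, 16173 for Il18, 77125 for Il33, 16181 for Il1rn, 16177 for Il1r1, 16178 for Il1r2, 16182 for Il18r1, 17082 for Il1rl1 and 12362 for Casp1.

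Promoters are shown for the 3 ligand genes that rose together in inflamed colon and for Il18, which did not. Each line holds the 100 bases before an annotated RefSeq start site of GRCm38.p6, 5′ to 3′ on the strand of the gene, and capitals mark the TATA-box letters TATAAA.
Il1a, minus strand, chr2:129309973-129310072: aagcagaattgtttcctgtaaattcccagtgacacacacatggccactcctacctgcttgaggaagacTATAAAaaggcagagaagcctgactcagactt
Il1b, minus strand, chr2:129371140-129371239: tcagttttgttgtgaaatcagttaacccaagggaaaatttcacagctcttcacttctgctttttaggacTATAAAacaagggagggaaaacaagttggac
Il33, plus strand, the downstream start, chr19:29945690-29945789: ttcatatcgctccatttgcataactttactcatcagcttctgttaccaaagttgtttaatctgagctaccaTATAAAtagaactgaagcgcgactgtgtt
Il18, plus strand, chr9:50554600-50554699: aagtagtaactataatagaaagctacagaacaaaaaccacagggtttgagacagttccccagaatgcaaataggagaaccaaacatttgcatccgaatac

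TATAAA began 32 bases before the start in Il1a, 31 in Il1b and 29 at the downstream start of Il33, and these letters were not in the 100 bases of Il18 shown. The longer RefSeq window of Il18 does hold them, on the other strand, 175 bases before the start, and that of the upstream start of Il33 holds them 203 bases before the start, so not within its nearest 100 bases. Searched on both strands over the full RefSeq windows, which run from 250 bases before to 50 after a start, TATAAA was in 13.6% of all 32851 promoters and in 6 of the 17 promoters of the 10 genes. Other genes that rose in DSS colon did not share it: Il1r1, Il1r2, Il1rl1 and Il18r1 lacked it in all windows. Il1rn had it only on the other strand, 14 bases after 1 of its starts. TGANTCA, letters of the AP-1 site, was in 7.81% of all promoters and in 2 of the 17, among them that of Il1a, 12 bases before the start. TTGCNNAA, letters of a C/EBP site, was in 10.8% of all and in 3 of the 17, and the kappaB consensus in 4.51% of all and in 1 of the 17. These matches describe letters and no factor binding, and gene counts do not show which start of Il33 was used.

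Libraries held 14.72 to 19.68 M counts in skin and 15.08 to 18.66 M counts in colon, and levels are given as CPM, counts scaled to a common library total. All 10 genes passed the filter on low counts in each tissue. Counts of Il1a, Il1b, Il1r2, Il18, Il33 and Casp1 were whole in all 49 libraries, whereas those of Il18r1 were not whole in 49, of Il1rl1 in 48, of Il1rn in 33 and of Il1r1 in 1, so part of their reads had been shared out among genes and their levels are less certain. Genes on the opposite strand overlap Il1a (Gm14023), Il1b (Il1bos), Il1r2 (Gm16894) and Il18 (Bco2, Tex12), and the sources used here do not state whether strand was used in counting. On the same strand, Gm38070 overlaps Il1r1 and Gm37347 overlaps Il1r2, which strand would not separate. Tissue labels fitted their markers: summed CPM of 8 keratinocyte genes was at least 29390 in every skin library, and summed CPM of 10 colon epithelium genes was at least 3972 in every colon library. Several libraries stood apart. DSS with PBS replicate 6 had 2689 CPM of keratinocyte markers, mostly Krt5 (1499 CPM) and Krt14 (1070 CPM), against at most 28.99 in any other colon library, while its cornified-layer gene Lor was near 0, as in all colon libraries, where it reached at most 0.31 CPM. Colon water replicate 4 had 58400 CPM of epithelial markers, against a group median of 14580. Its excess was in Muc2, the mucin gene of goblet cells, at 46430 CPM, while its other 9 epithelial markers summed to 11970 CPM, against 9967 to 11330 CPM in the other 4 water libraries. In skin, anti-IL-36R replicate 7 had the highest neutrophil marker sum of its group, at 12640 CPM, nearly all of it S100a8 and S100a9. Calls that these libraries decide are given with and without them.

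In IMQ skin with PBS, Il1b and Il33 rose steeply over water with PBS while Il18 and its receptor gene Il18r1 fell. Il1r1 and Casp1 also passed the test with small rises, which makes 4 genes higher and 2 lower, where 33% of all 15345 genes tested were called, 15.5% higher and 17.5% lower. The median log2 fold change was 0.45 over the 10 genes and -0.03 over all genes. Il1a, Il1rn, Il1r2 and Il1rl1 did not pass.

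Il1b, the ligand made mainly by activated myeloid cells, had a lowest, median and highest level of 34.4, 54.3 and 128 CPM in IMQ skin with PBS, against 4.58, 2.18 and 5.24 CPM in the 3 water libraries. The groups did not overlap, and the log2 fold change was 3.94 ± 0.78 (SE; adjusted p = 0.0011, edgeR quasi-likelihood test). Il33, the alarmin of barrier cells, ran from 199 over a median of 286 to 366 CPM in IMQ skin with PBS, against 34.59, 39.96 and 38.25 CPM in water skin. It did not overlap either and its log2 fold change was 2.93 ± 0.54 (adjusted p = 0.00069).

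Il18, which keratinocytes make without stimulation, went the other way. Its lowest, median and highest levels were 21.7, 25.6 and 51.1 CPM in IMQ skin with PBS, against 48.7, 91.4 and 65.4 CPM in water skin. Only replicate 1 of the IMQ group, at 51.1 CPM, reached the water range, and Il18 fell by 1.22 ± 0.24 on the log2 scale (adjusted p = 0.0011). Il18r1, the ligand-binding chain of the interleukin-18 receptor on T and NK cells, averaged 4.89 ± 0.28 CPM in IMQ skin with PBS and 8.74 ± 0.93 CPM in water skin (SD, n = 6 and 3). Its ranges were apart, and it fell by 0.84 ± 0.13 on the log2 scale (adjusted p = 0.00021). Of 10 T and NK cell markers, 7 fell and 0 rose in the same comparison, with summed levels of 165.2 to 253.2 CPM in IMQ skin with PBS and 311.4 to 364.2 CPM in water skin. Their part in the Il18r1 result was not tested. In tissue pieces such as these, fewer cells of a type and less RNA per cell cannot be told apart.

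Among the remaining skin genes, Il1r1, the signalling interleukin-1 receptor, averaged 63.6 ± 16.7 CPM in IMQ skin with PBS and 41.0 ± 7.9 CPM in water skin (log2 fold change 0.63 ± 0.24, adjusted p = 0.048). Casp1 averaged 35.7 ± 7.1 and 26.2 ± 4.4 CPM in the same groups (0.45 ± 0.17, adjusted p = 0.043). Of these calls, Il1r1 missed the threshold under 9 and Casp1 under 11 of 16 alternatives. Il1a averaged 57.7 ± 27.8 CPM in IMQ skin with PBS and 32.3 ± 10.5 CPM in water skin (0.84 ± 0.37, adjusted p = 0.083), and Il1rn 144 ± 55 and 106 ± 37 CPM (0.45 ± 0.27, adjusted p = 0.21). Without water replicate 2, Il1a (adjusted p = 0.0499) and Il1rn (0.0497) just passed. Il1r2 was at 31.4 ± 12.1 CPM under IMQ and 34.5 ± 13.5 CPM under water, and Il1rl1 at 4.51 ± 1.15 and 6.30 ± 2.33 CPM.

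**Figure D1:**
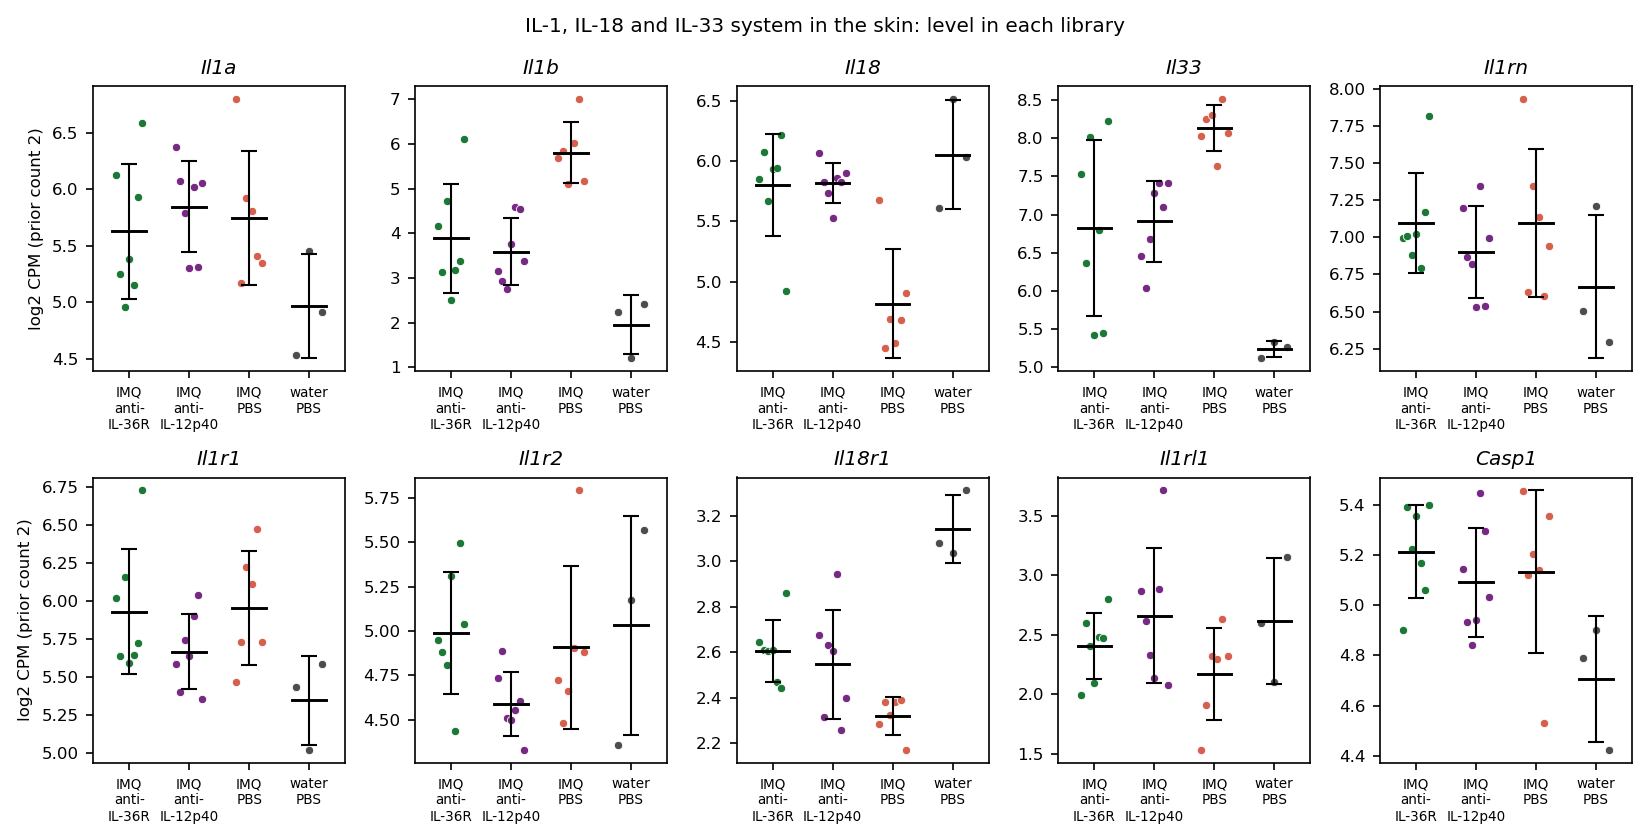
Each panel plots 1 gene in the 4 skin groups as log2 CPM with a prior count of 2 (points are libraries, bars mean ± SD; n = 7, 7, 6 and 3 from left to right). Il1b and Il33 are highest in IMQ skin with PBS, at medians of 54.3 and 286 CPM, and Il18 is lowest there, at a median of 25.6 CPM.

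With either antibody Il18 rose in IMQ skin relative to PBS. Under anti-IL-36R, 1 of the 10 genes passed, a rise of Il18, where 4.21% of all genes were called. Under anti-IL-12p40, 3 passed, a rise of Il18 and falls of Il1b and Il33, where 8.8% of all genes were called. The antibody comparisons share the IMQ libraries with PBS, both with each other and with the comparison against water. The labels' numbers place all anti-IL-12p40 skin libraries in a block without controls, so antibody and block cannot be told apart there.

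Il18 ran from 30.2 over a median of 61.0 to 74.1 CPM with anti-IL-36R and from 45.9 over 56.7 to 67.1 CPM with anti-IL-12p40, against 21.7, 25.6 and 51.1 CPM with PBS. Each antibody group overlapped the PBS group only through PBS replicate 1, at 51.1 CPM, since the other 5 PBS libraries lay at 29.8 CPM or below. The rise was 0.97 ± 0.20 on the log2 scale with anti-IL-36R (adjusted p = 0.0080) and 0.95 ± 0.20 with anti-IL-12p40 (adjusted p = 0.0062). Against water, Il18 differed by -0.25 ± 0.24 with anti-IL-36R and by -0.27 ± 0.24 with anti-IL-12p40, and neither passed. Il18r1 ran from 5.315 to 7.147 CPM with anti-IL-36R and from 4.386 to 5.115 CPM with PBS. These ranges were apart, but its change of 0.30 ± 0.11 did not pass (adjusted p = 0.11), and overlap over all genes was not counted. With anti-IL-12p40 its range overlapped that of PBS (0.25 ± 0.11, adjusted p = 0.14).

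Il1b ran from 5.59 over 10.2 to 69.0 CPM with anti-IL-36R and from 6.65 over 10.2 to 23.8 CPM with anti-IL-12p40, against 34.4, 54.3 and 128 CPM with PBS. All anti-IL-12p40 libraries lay below all PBS libraries, and so did 6 of the 7 with anti-IL-36R, replicate 7 being the exception. The fall was 2.21 ± 0.50 on the log2 scale with anti-IL-12p40 (adjusted p = 0.0088), and the log2 fold change with anti-IL-36R was -1.56 ± 0.48 (adjusted p = 0.070). Il33 ran from 42.7 over 111 to 298 CPM with anti-IL-36R and from 65.6 over 137 to 171 CPM with anti-IL-12p40, against 199, 286 and 366 CPM with PBS. Its anti-IL-12p40 and PBS ranges were apart. Its fall with anti-IL-12p40 was 1.17 ± 0.36 (adjusted p = 0.047), and its change with anti-IL-36R was -0.97 ± 0.36 (adjusted p = 0.13).

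Replicate 7 of the anti-IL-36R group decided the count. It had the highest Il1b, Il33 and Il1rn and the lowest Il18 of its group, beside a summed S100a8 and S100a9 of 12510 CPM, against 3142 to 7251 CPM in the other 6. Without it Il1b (-2.26, adjusted p = 0.0020) and Il33 (-1.24, adjusted p = 0.034) passed as well, so 3 genes were called. With PBS replicates 1 to 3 as the only IMQ controls, 0 of the 10 genes passed under either antibody, and the Il33 call under anti-IL-12p40 was lost under 14 of 20 alternatives.

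Markers of neutrophils moved with Il1b, but their sum was carried by a pair of genes. S100a8 and S100a9, which inflamed keratinocytes also make, held 92.3% to 99.5% of it in every skin library. Ly6g, a gene specific to neutrophils, and Mpo, a gene of their granules, were the lowest of the list and reached at most 1.31 and 0.561 CPM. The rest of the list reached more: Csf3r 94.0, Cxcr2 52.3, Fpr1 32.6, Mmp8 24.3, Trem1 16.7 and Retnlg 14.7 CPM. The summed level, over 10 genes, ran from 3227 to 12640 CPM with anti-IL-36R, from 1019 to 5277 CPM with anti-IL-12p40 and from 8104 to 16700 CPM with PBS, all under IMQ, and from 395.8 to 2681 CPM in water skin. Without these 2 genes the other 8 summed to 65.08 to 135.7 CPM with anti-IL-36R, 50.71 to 192.5 CPM with anti-IL-12p40 and 83.3 to 206.7 CPM with PBS, and to 30.31 to 42.15 CPM in water skin, so that only the water group stood apart. Of the 8 tested, 7 rose under IMQ with PBS against water, 3 fell with anti-IL-12p40 (S100a8, S100a9 and Trem1) and 0 passed with anti-IL-36R.

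Markers of other cells in skin moved as well. The summed keratinocyte markers overlapped between all skin groups, at 33190 to 68880 CPM in IMQ skin with PBS and 39090 to 67750 CPM in water skin, but their members went both ways. Of 8, 3 rose under IMQ with PBS (Krt5, Krt14 and Dsg3, of the lower layers) and 3 fell (Krt10 and Lor, of the differentiated layers, and Krt15). With anti-IL-12p40 Krt15 and Lor rose and Dsg3 fell, and with anti-IL-36R Krt15 rose. Of 6 fibroblast markers, 4 fell under IMQ with PBS, with sums of 4202 to 10390 CPM there and 13590 to 23200 CPM in water skin, which did not overlap. Of 10 monocyte and macrophage markers 5 rose, and of 6 endothelial markers 4 rose. With anti-IL-12p40 against PBS, 1 monocyte and macrophage marker fell and 5 of the 10 T and NK cell markers rose. The part of these cells in the results was not tested.

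Compared with each other under IMQ, anti-IL-36R and anti-IL-12p40 gave 0 calls among the 10 genes, where 0.0456% of all genes were called. At an unadjusted p under 0.05 this comparison held 814 of all genes, Il1r2 being the only one of the 10 (0.43 ± 0.19 higher with anti-IL-36R, adjusted p = 0.92), and DESeq2 also called 0 of the 10. For Il18 the difference was 0.02 ± 0.19, for Il33 0.20 ± 0.35 and for Il1b 0.65 ± 0.48.

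Against water, anti-IL-36R skin had higher Il1b (2.38 ± 0.73, adjusted p = 0.034), Il33 (1.96 ± 0.51) and Casp1 (0.51 ± 0.16) and lower Il18r1 (-0.54 ± 0.13), 4 calls where 13.1% of all genes were called. Without replicate 7 of the antibody group, Il1b (1.68, adjusted p = 0.064) and Casp1 (0.48, adjusted p = 0.075) did not pass. Over 15 alternatives, Il1b and Casp1 were each lost under 7, Il33 under 4 and Il18r1 under 1. The single libraries that ended a call when left out were antibody replicates 3 and 7 and any water library for Il1b, antibody replicates 2, 3 and 7 and water replicates 1 and 3 for Casp1, water replicates 1 and 3 for Il33 and water replicate 3 for Il18r1. Anti-IL-12p40 skin had higher Il33 (1.76 ± 0.50, adjusted p = 0.045) and lower Il18r1 (-0.59 ± 0.13), 2 calls where 4.8% of all genes were called, and its Il1b (1.73 ± 0.71, adjusted p = 0.15) did not pass. The Il33 call was lost under 11 of 15 alternatives (adjusted p up to 0.15), among them leaving out any library but antibody replicate 2, and the Il18r1 call under 2, among them leaving out water replicate 3.

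In DSS colon with PBS nearly the whole system rose over water. Of the 10 genes 8 were higher and 0 lower, where 32.2% of all 15731 genes tested were called and 17.6% were higher. The same 8 genes had no overlap between the groups. How many of all genes had no overlap was not counted, so this is a description only. Il18 and Casp1, the genes with the highest level per kilobase in water colon, did not pass. The median log2 fold change was 2.26 over the 10 genes and -0.03 over all genes.

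The ligands Il1a and Il1b rose most. Il1b ran from 73.4 over a median of 122 to 1007 CPM in DSS colon with PBS, against 1.17, 1.07, 0.534, 1.70 and 0.562 CPM in water colon (log2 fold change 8.31 ± 1.01, adjusted p = 2.0e-06). Il1a ran from 6.79 over 15.7 to 142 CPM in DSS colon with PBS, while water colon held 2, 1, 0, 1 and 3 counts. All DSS libraries exceeded all water libraries for each gene, and DSS replicate 5 was highest. The fitted Il1a fold (8.74 ± 1.19 on the log2 scale, adjusted p = 7.2e-06) leans on the prior count, so the ratio of the means is given as well: it was 450, with 219 to 1120 as the 95% exact Poisson limits from the 7 water counts, which cover counting error only. Replicate 5 carried that mean: without it the ratio was 215 (104 to 534), and the fitted rise was 7.69 for Il1a and 7.51 for Il1b, both still past the threshold.

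Il33 ran from 18.1 over 29.9 to 136 CPM in DSS colon with PBS, against 15.6, 11.3, 13.9, 4.45 and 10.2 CPM in water colon. The groups were apart by a small margin, with a log2 fold change of 2.21 ± 0.46 (adjusted p = 0.00081). Its highest value came from DSS replicate 6, the library with keratinocyte markers, and its lowest from water replicate 4. Without these 2 libraries the Il33 rise was 1.44 (adjusted p = 0.0081), and the same count of 8 genes passed. Il18 showed no such shift: it averaged 85.6 ± 49.9 CPM in DSS colon with PBS and 88.9 ± 31.5 CPM in water colon (SD, n = 6 and 5; log2 fold change -0.06 ± 0.33, adjusted p = 0.91).

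The receptors rose as well, the decoy receptor gene Il1r2 included. Il1r2, whose product binds interleukin-1 without signalling, ran from 7.33 over 23.2 to 111 CPM in DSS colon with PBS, against 0.494, 0.394, 0.374, 1.34 and 0.437 CPM in water colon (5.97 ± 0.74, adjusted p = 2.7e-06, and 5.25 without DSS replicate 2). Il1rl1, encoding the interleukin-33 receptor, ran from 19.4 over 68.4 to 211 CPM, against 1.67, 2.20, 2.35, 5.80 and 1.997 CPM (4.92 ± 0.63, adjusted p = 3.7e-06), in the same groups. Neither gene overlapped between groups, and within DSS the libraries differed by over 10-fold. Gene counts do not separate soluble from membrane forms of ST2. Il1r1 averaged 111 ± 71 CPM in DSS colon with PBS and 22.4 ± 6.4 CPM in water colon (2.31 ± 0.37, adjusted p = 4.8e-05). Il18r1 averaged 8.89 ± 5.09 and 2.46 ± 0.66 CPM (1.86 ± 0.37, adjusted p = 0.00047), and the antagonist Il1rn 169 ± 101 and 66.8 ± 30.1 CPM (1.34 ± 0.36, adjusted p = 0.0063). Casp1 stayed at 88.6 ± 30.3 CPM under DSS against 104 ± 15 CPM under water (-0.23 ± 0.20, adjusted p = 0.39).

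**Figure D2:**
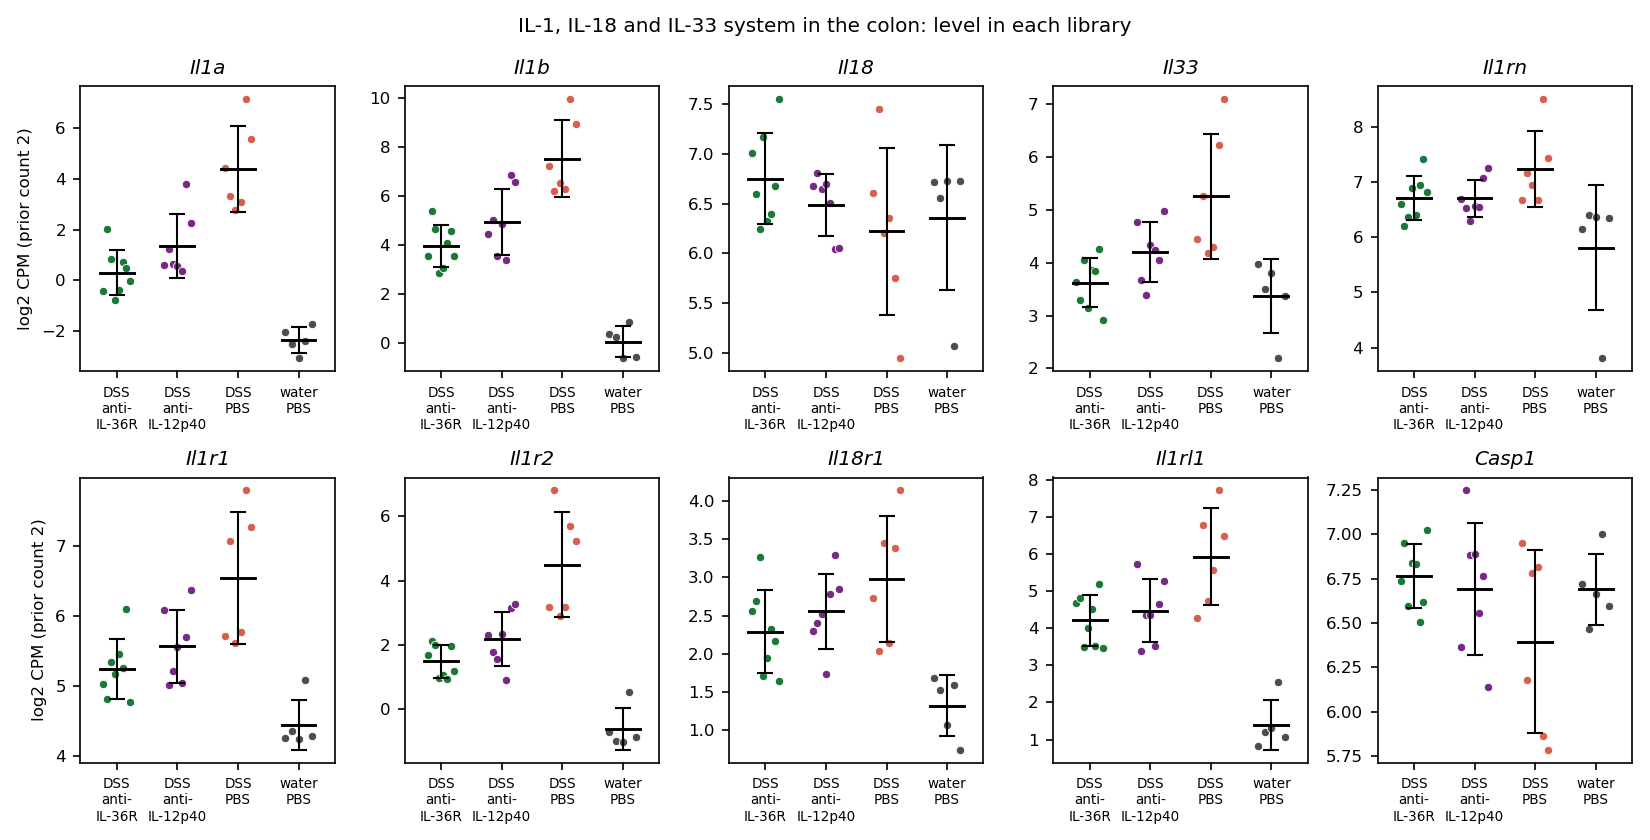
Each panel plots 1 gene in the 4 colon groups as log2 CPM with a prior count of 2 (points are libraries, bars mean ± SD; n = 8, 7, 6 and 5 from left to right). In 8 panels DSS colon with PBS lies above water colon without overlap, while Il18 and Casp1 overlap, and water replicate 4 lies far below the rest of its group for Il18 and Il1rn.

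Under anti-IL-36R, 6 of the 10 genes fell in DSS colon relative to PBS, where 6.6% of all genes were called and 5.45% were lower. All 6 had risen with DSS. In colon too, the antibody comparisons share the PBS libraries with each other and with the comparison against water. High values in those libraries therefore favour both a rise with DSS and a fall with antibody. Il1a, Il1b and Il1r2 fell without overlap between groups, and overlap over all genes was not counted. Il1rn and Il18r1 did not pass, nor did Il18 and Casp1.

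Il1a ran from 0.467 over a median of 1.07 to 3.903 CPM with anti-IL-36R, against 6.79, 15.7 and 142 CPM with PBS, and fell by 4.84 ± 0.72 on the log2 scale (adjusted p = 0.00025). Il1b ran from 7.18 over 14.4 to 42.1 CPM with anti-IL-36R, against 73.4, 122 and 1007 CPM with PBS, and fell by 4.11 ± 0.65 (adjusted p = 0.00042). Il1r2 ran from 1.79 over 2.62 to 4.22 CPM with anti-IL-36R, against 7.33, 23.2 and 111 CPM with PBS, and fell by 3.72 ± 0.53 (adjusted p = 0.00025). For these 3 genes every antibody library lay below every PBS library. The size of the falls leaned on 1 PBS library each, since without DSS replicate 5 the log2 changes were -3.801 for Il1a (adjusted p = 0.0013) and -3.31 for Il1b (adjusted p = 0.0019), and without DSS replicate 2 that of Il1r2 was -3.002 (adjusted p = 0.00064).

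Il1rl1 averaged 20.4 ± 9.6 CPM with anti-IL-36R and 84.2 ± 71.7 CPM with PBS (-2.05 ± 0.46, adjusted p = 0.0069). Il33 averaged 12.8 ± 4.0 and 51.4 ± 46.7 CPM (-2.01 ± 0.39, adjusted p = 0.0023), and Il1r1 39.5 ± 13.2 and 111 ± 71 CPM (-1.49 ± 0.31, adjusted p = 0.0038). These groups overlapped. Leaving out DSS replicate 6 and water replicate 4 left 6 calls, with the Il33 fall at 1.43 (adjusted p = 0.012), whereas limma-voom with sample weights kept 3 calls. Il1rn averaged 109 ± 31 CPM with anti-IL-36R and 169 ± 101 CPM with PBS (-0.63 ± 0.31, adjusted p = 0.22).

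Under anti-IL-12p40, Il1a, Il1b and Il1r2 fell, 3 of the 10 genes, where 1.15% of all genes were called and 1.13% were lower. Il1a ran from 1.17 over 1.45 to 13.9 CPM with anti-IL-12p40, and its fall was 3.39 ± 0.70 on the log2 scale against PBS (adjusted p = 0.019). Il1b ran from 10.4 over 28.9 to 116 CPM with anti-IL-12p40 (-2.80 ± 0.64, adjusted p = 0.035), and Il1r2 from 1.76 over 4.86 to 9.56 CPM (-2.87 ± 0.53, adjusted p = 0.013). Without DSS replicate 5, the library highest in Il1a and Il1b, neither passed (Il1a -2.34, adjusted p = 0.11, and Il1b -1.99, adjusted p = 0.16), and without replicate 6 they missed the threshold with folds of nearly the same size (Il1a -3.34, adjusted p = 0.051, and Il1b -2.63, adjusted p = 0.12). Leaving out antibody replicate 2, 3, 4 or 5 also ended the Il1a call (adjusted p up to 0.060). Leaving out any of antibody replicates 1 to 5 ended the Il1b call (adjusted p up to 0.090). Of 19 alternatives, Il1a was lost under 9, Il1b under 10 and Il1r2 under 2. Without antibody replicate 6 the Il1a change was -4.28 (adjusted p = 0.0075), and without DSS replicate 2 that of Il1r2 was -2.15 (adjusted p = 0.037). All 10 genes overlapped between the anti-IL-12p40 and PBS groups, replicates 6 and 7 being the highest antibody libraries for Il1a, Il1b and Il1r2. Overlap over all genes was not counted here either. Il1rl1 (-1.71 ± 0.47, adjusted p = 0.080), Il1r1 (-1.14 ± 0.32, adjusted p = 0.082) and Il33 (-1.40 ± 0.40, adjusted p = 0.095) did not pass. The count ran from 1 to 6 when single libraries were left out, was 1 without DSS replicate 6 and water replicate 4 (Il1a adjusted p = 0.061, Il1b 0.12), 6 with DESeq2, and 0 with limma-voom or with these 2 groups fitted alone.

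Set against each other under DSS, the antibodies gave 0 calls among the 10 genes and 0 among all 15731 (0%), with 552 genes at an unadjusted p under 0.05 in edgeR and 0 calls in DESeq2. Anti-IL-36R colon had the lower value for Il1a (-1.45 ± 0.68, unadjusted p = 0.042) and Il1b (-1.31 ± 0.58, unadjusted p = 0.035), each with an adjusted p of 0.9997. Against water, anti-IL-36R colon was higher in Il1a (3.902 ± 1.24, adjusted p = 0.045), Il1b (4.20 ± 0.87), Il1r2 (2.25 ± 0.68, adjusted p = 0.036) and Il1rl1 (2.87 ± 0.57), 4 calls where 9.92% of all genes were called and 6.92% were higher. Of 19 alternatives, Il1b and Il1rl1 were lost under 0, whereas Il1a was lost under 11 (adjusted p up to 0.11) and Il1r2 under 7 (up to 0.088). Leaving out antibody replicate 2, 3, 6 or 7 or any water library ended the Il1a call, and antibody replicate 2, 3 or 7 or water replicate 1, 2, 3 or 5 that of Il1r2. Anti-IL-12p40 colon was higher in 6, these 4 and Il1r1 (1.17 ± 0.35) and Il18r1 (1.30 ± 0.35), where 17.2% of all genes were called and 10.8% were higher. Of 18 alternatives the Il1r1 call was lost under 5, which left out antibody replicate 7 or water replicate 1, 2, 3 or 5, and the others under 0. Il33 was 0.20 ± 0.42 above water with anti-IL-36R and 0.81 ± 0.43 with anti-IL-12p40, and neither passed.

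Markers of several cell types rose with DSS in colon, and those of neutrophils also fell with either antibody. The summed neutrophil markers ran from 91.59 to 267.4 CPM with anti-IL-36R, from 59.08 to 364.2 CPM with anti-IL-12p40 and from 220 to 3365 CPM with PBS under DSS, and from 5.444 to 83.44 CPM in water colon. Of 10 neutrophil markers, 9 rose with DSS, 8 fell with anti-IL-36R and 7 with anti-IL-12p40. Monocyte and macrophage markers ran from 757.4 to 2234 CPM in DSS colon with PBS and from 194.3 to 406.7 CPM in water colon, T and NK cell markers from 99.37 to 240.2 and from 36.9 to 54.85 CPM, and 9 of 10 genes rose in each list. With anti-IL-36R 5 of the monocyte and macrophage markers fell, and with anti-IL-12p40 0 did. Of 6 fibroblast markers, 6 rose with DSS, with sums of 3997 to 13880 CPM in DSS colon with PBS and 1706 to 2876 CPM in water colon, and of 6 endothelial markers 5 rose, with sums of 207.5 to 710 and 170.1 to 210.3 CPM. Of the T and NK cell, fibroblast and endothelial markers 0 passed with either antibody. Of 10 colon epithelium markers 2 fell with DSS, and 0 passed with either antibody. Without Muc2 their sum was 4528 CPM in DSS replicate 5 and 2315 CPM in replicate 6, against 8096 to 10160 CPM in the other PBS libraries under DSS. Of 8 mast cell markers, from cells that also carry ST2, 6 rose with DSS and 1 fell with each antibody. Kit, which interstitial cells of the gut also make, did not pass (-0.75 ± 0.32, adjusted p = 0.075) and held 90.0% to 99.6% of the summed markers in water colon, and without it the other 7 summed to 22.67 to 147.9 CPM in DSS colon with PBS and 0.919 to 8.05 CPM in water colon. The part of these cells in the results was not tested.

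**Figure D3:**
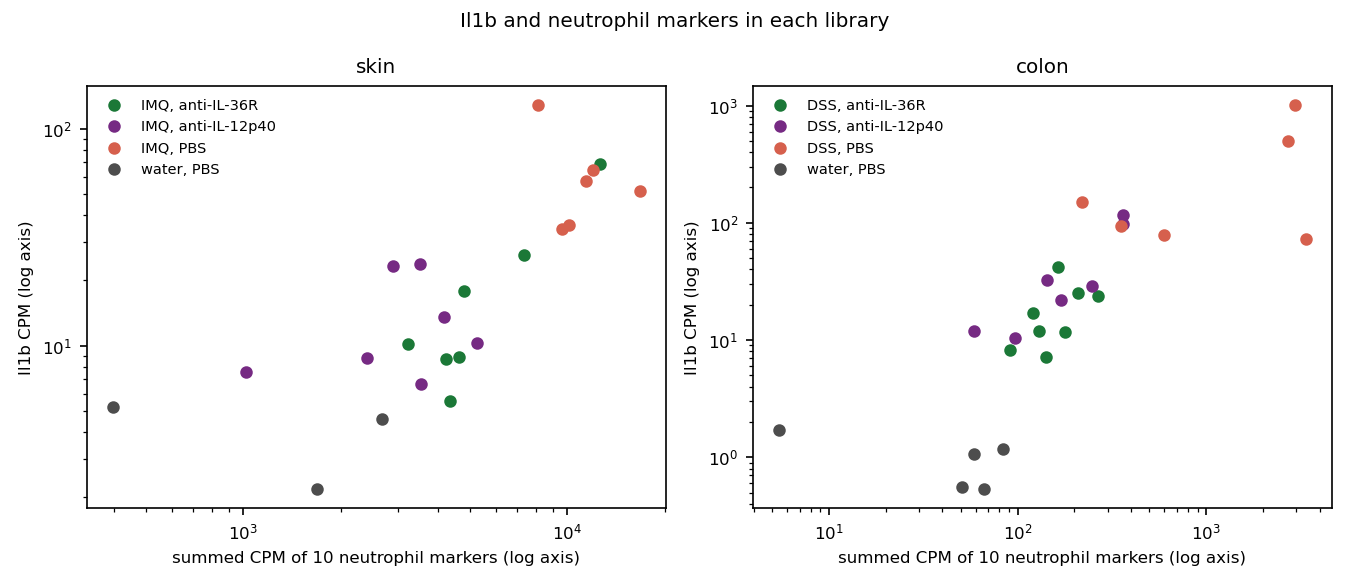
Il1b CPM is plotted against the summed CPM of 10 neutrophil markers for each library (log axes, colours are groups). In skin the IMQ libraries with PBS sit at 8104 to 16700 CPM of markers, joined by 1 anti-IL-36R library and carried by S100a8 and S100a9, and in colon 3 of the DSS libraries with PBS sit at 2700 to 3365 CPM with Il1b at 73.4, 494 and 1007 CPM.

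The tissues were compared in 1 fit over all 49 libraries, as the response in skin minus the response in colon. The disease response differed for 6 of the 10 genes, where 22.3% of all 16818 genes were called and 13.4% were lower, and each was lower in skin: Il1a by -7.83 ± 1.20, Il1r2 by -6.07 ± 0.75, Il1rl1 by -5.34 ± 0.69, Il1b by -4.31 ± 1.14, Il18r1 by -2.65 ± 0.41 and Il1r1 by -1.62 ± 0.45. Without DSS replicate 5 the differences were -6.80 for Il1a and -3.50 for Il1b, and without DSS replicate 2 that of Il1r2 was -5.43, all still past the threshold. For Il33 the difference was 0.77 ± 0.67 (adjusted p = 0.43), and Il18 (-1.13 ± 0.45, adjusted p = 0.062) and Casp1 (0.71 ± 0.28, adjusted p = 0.058) did not pass. Each tissue came with its own inflammatory agent, so tissue and agent cannot be told apart.

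The anti-IL-36R response was higher in skin than in colon for 4 genes, where 5.14% of all were called and 4.13% were higher: Il1a (4.68 ± 0.76), Il1r2 (3.73 ± 0.57), Il1rl1 (2.23 ± 0.56) and Il1r1 (1.44 ± 0.37). All 4 fell in colon, whereas their skin changes were -0.115 for Il1a, 0.05 for Il1r2, 0.22 for Il1rl1 and -0.01 for Il1r1, and none passed. The anti-IL-12p40 response was higher in skin for 3, where 1.87% were called and 1.47% were higher: Il1a (3.39 ± 0.73), Il1r2 (2.46 ± 0.57) and Il1rl1 (2.24 ± 0.56). Without DSS replicate 5 the Il1a differences were 3.64 and 2.36 (adjusted p = 0.0014 and 0.049), in the same antibody order, and without DSS replicate 2 those of Il1r2 were 3.06 and 1.77 (adjusted p = 0.00035 and 0.044). Without anti-IL-12p40 colon replicate 6 the second Il1a difference was 4.23. Of 31 alternatives with anti-IL-36R, Il1a and Il1r2 were lost under 0, Il1r1 under 3 and Il1rl1 under 2. Of 30 with anti-IL-12p40, Il1a and Il1r2 were each lost under 1 and Il1rl1 under 4. The genes that differed had not risen in IMQ skin with PBS, apart from Il1r1. For Il18 the difference between tissues did not pass with anti-IL-36R (0.55 ± 0.38, adjusted p = 0.44) or with anti-IL-12p40 (0.83 ± 0.38, adjusted p = 0.29).

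**Figure D4:**
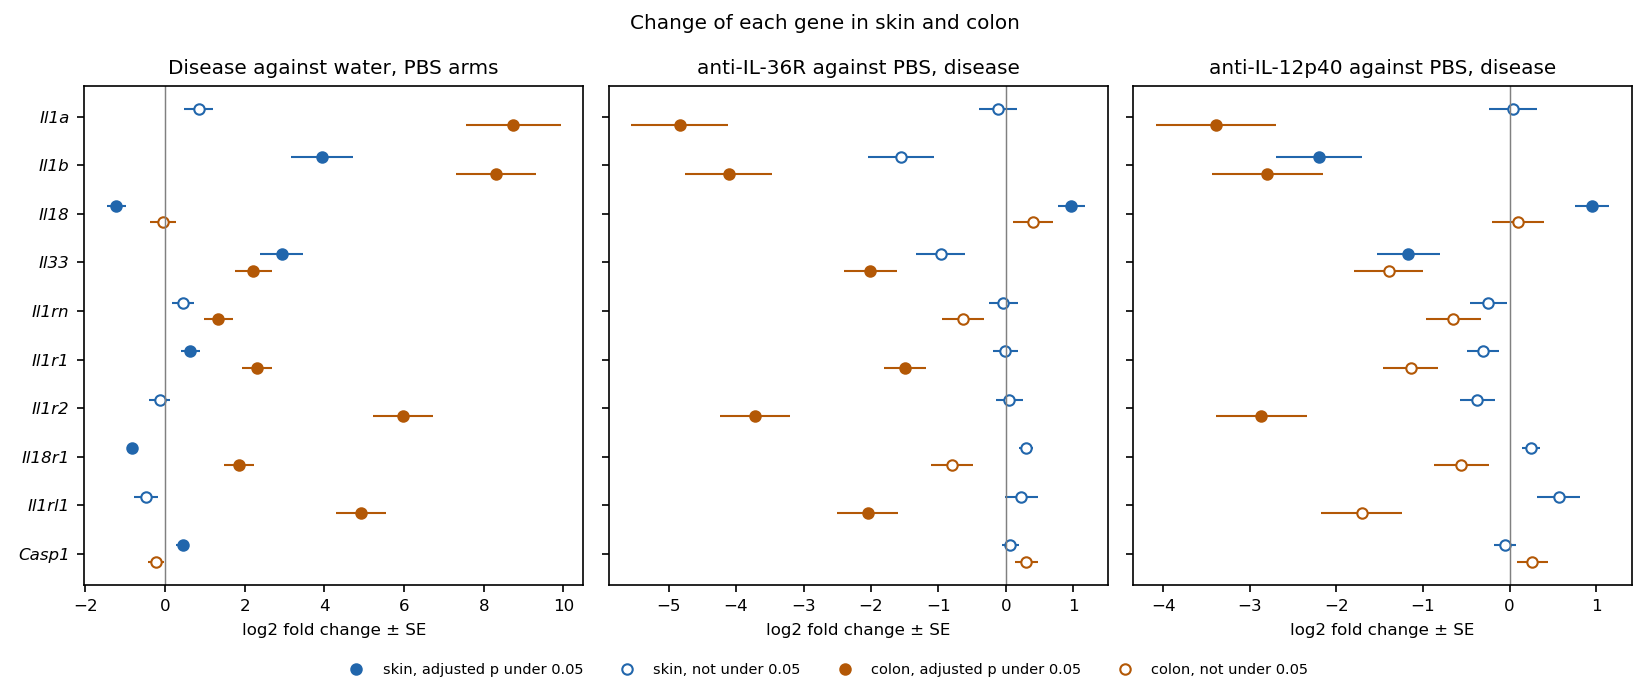
Log2 fold changes ± SE of the 10 genes are plotted for disease against water and for each antibody against PBS, in skin (upper marker of each pair) and colon (lower marker). Filled markers had an adjusted p under 0.05, and Il1a, Il1r2 and Il1rl1 show the widest gaps between tissues, at -7.83, -6.07 and -5.34 for the disease response.

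Levels were compared between genes as CPM per kilobase of merged GENCODE exons, which allows for transcript length only roughly. Merged exons of all annotated forms can be longer than the transcript made, which lowers the value of genes with several forms. In water colon Il18 led at 86.2 ± 30.5, followed by Casp1 at 69.4 ± 9.9 and Il1rn at 12.1 ± 5.4, while Il1a was last at 0.0443 ± 0.0359 CPM per kilobase. In water skin Il18 also led, at 66.5 ± 20.9, and Il1a, at 16.3 ± 5.3, lay among Il1rn, the highest of the others at 19.1 ± 6.8, Il1r2, Casp1 and Il33. Other genes led under inflammation: Il33 in IMQ skin with PBS, at 99.0 ± 19.6, and Il1b in DSS colon with PBS, at 166 ± 196 CPM per kilobase.

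The balance of antagonist to agonists differed between groups in colon. The ratio of Il1rn to the sum of Il1a and Il1b, per kilobase, had a median of 0.304 (0.11 to 0.594) in DSS colon with PBS and 25.9 (2.7 to 53.5) in water colon. It stood at 2.54 (0.558 to 5.4) with anti-IL-36R and 1.08 (0.358 to 2.79) with anti-IL-12p40 under DSS. In skin the median was 0.721 with anti-IL-36R, 0.592 with anti-IL-12p40 and 0.47 with PBS under IMQ, and 1.15 in water skin. The ratio of decoy to signalling receptor, Il1r2 to Il1r1, was 0.676 (0.498 to 2.75) in DSS colon with PBS and 0.0746 (0.0641 to 0.133) in water colon. In skin it was 1.65 (1.13 to 2.08) in IMQ skin with PBS and 3.3 (1.58 to 3.71) in water skin. Ligand mix differed by tissue, since Il1b over Il1a had a median of 8.62 in DSS colon with PBS and 1.05 in IMQ skin with PBS. These ratios are of transcripts, are given without a test, and say nothing of protein. They also depend on the merged lengths, 5.54 kb for Il1rn, 1.97 kb for Il1a and 1.91 kb for Il1b, so their order between groups says more than their size.

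**Figure D5:**
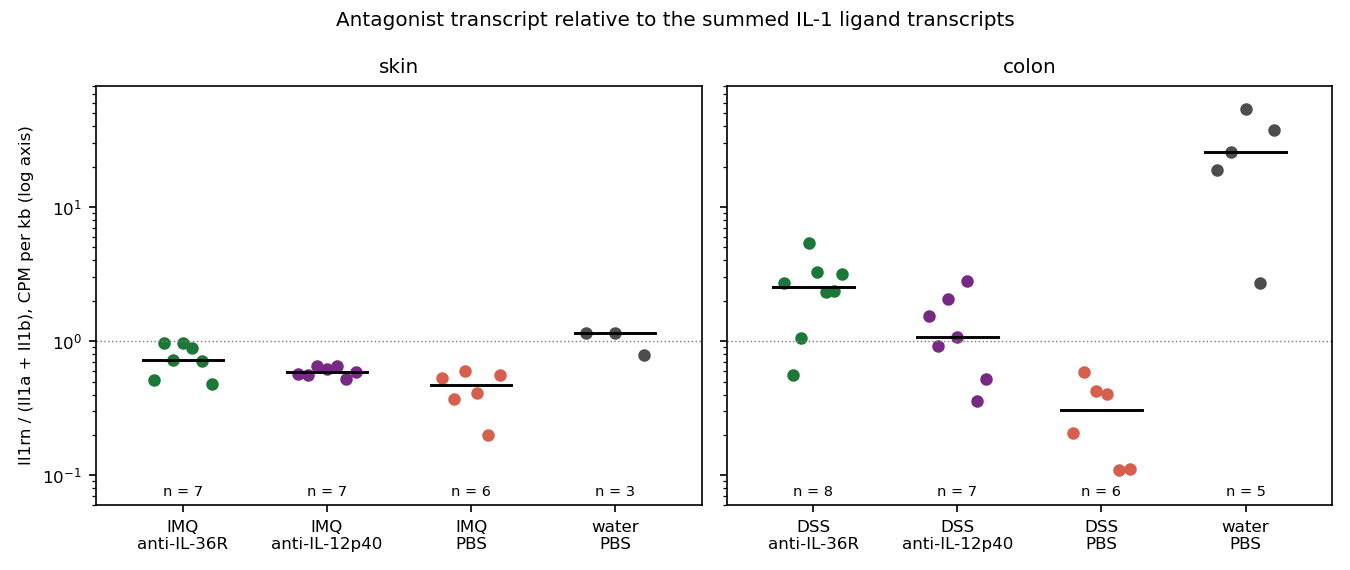
The ratio of Il1rn to the summed Il1a and Il1b, in CPM per kilobase, is plotted for each library of the skin and colon groups (log axis, bars are medians, the dotted line marks equality in these units). Colon spans from 0.11 in DSS with PBS to 53.5 in water, and the DSS libraries with PBS all lie below the water libraries.

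In skin, Il1b ran from IMQ with PBS over anti-IL-36R and anti-IL-12p40 to water, and only the neighbours anti-IL-36R and anti-IL-12p40 differed by less than their spread (larger SD of the pair). Il33 had the same order and the same unresolved pair. Il18 ran the other way, from water over anti-IL-36R and anti-IL-12p40 to IMQ with PBS, and only the last step exceeded the spread. In colon, Il1a, Il1b, Il1r1, Il1r2, Il18r1 and Il1rl1 ran from DSS with PBS over anti-IL-12p40 and anti-IL-36R to water, and for these 6 only the step from anti-IL-36R to water exceeded the spread. No step of Il18, Il33 or Casp1 in colon did.

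Partners of these cytokines were read from lists of pathway genes. Of 5 tested receptor partners and soluble regulators, Il18rap, the signalling chain of the interleukin-18 receptor, rose in IMQ skin with PBS (1.28 ± 0.29, adjusted p = 0.0029) while Il18r1 fell, and the inhibitory receptor Sigirr (-0.65 ± 0.22) and the family ligand Il1f10 (-1.31 ± 0.47) fell. In DSS colon with PBS 2 of 4 rose, Il18rap (4.12 ± 0.58) and Il18bp (2.27 ± 0.46), the soluble interleukin-18 binding protein. Il18rap fell with anti-IL-36R (-2.43 ± 0.44) and anti-IL-12p40 (-1.90 ± 0.45) in colon and with anti-IL-12p40 in skin (-0.89 ± 0.22).

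Of the inflammasome genes, 6 of 14 rose and 0 fell in IMQ skin with PBS, with a list median of 0.59: Aim2 (1.14 ± 0.22), Casp8 (0.40 ± 0.08), the sensor Nlrp3 (1.82 ± 0.44) and Casp4 (1.16 ± 0.31), the caspase that senses cytosolic lipopolysaccharide, had the lowest adjusted p. In DSS colon with PBS 5 of 16 rose and 1 fell (list median 0.22): Mefv, encoding pyrin (3.71 ± 0.46), Nlrp3 (5.02 ± 0.67), Nlrp1a (1.55 ± 0.31) and Nek7 (0.31 ± 0.09) led, and Nlrp6, a sensor of the gut epithelium, was the one that fell (-0.999 ± 0.361). Nlrp3 ran from 8.73 to 94.3 CPM in DSS colon with PBS and from 0.437 to 1.30 CPM in water colon. It fell with anti-IL-36R (-3.10 ± 0.49) and anti-IL-12p40 (-2.10 ± 0.49) in colon, as did Mefv (-1.94 ± 0.35 and -1.45 ± 0.36), and Nlrp3 fell with anti-IL-12p40 in skin (-1.14 ± 0.32).

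Of 15 adaptors and kinases, 5 rose in IMQ skin with PBS and 6 in DSS colon with PBS, with 1 lower in each. Myd88 (0.76 ± 0.12), Nfkbia (1.07 ± 0.24), Nfkbiz (0.95 ± 0.23) and Nfkb1 (0.41 ± 0.10) led in skin, and Nfkbiz (1.43 ± 0.23), Nfkbia (1.20 ± 0.21), Irak3 (1.55 ± 0.28) and Myd88 (0.84 ± 0.15) in colon. Nfkbia and Nfkbiz are NF-kappaB response genes and Irak3 is an inhibitor of the pathway. With anti-IL-36R in colon Nfkbia (-0.89 ± 0.18), Irak3 (-1.15 ± 0.24) and Myd88 (-0.53 ± 0.13) fell. With anti-IL-12p40 in skin Myd88 (-0.39 ± 0.09), Nfkbia (-0.64 ± 0.18) and Nfkbiz (-0.60 ± 0.17) fell. Of 10 tested proteases that cut these cytokines outside inflammasomes, 4 rose in IMQ skin with PBS, led by Capn2 (1.07 ± 0.14), which cuts the interleukin-1 alpha precursor. In DSS colon with PBS 5 rose, among them granzyme B (Gzmb, 4.67 ± 0.73) and proteinase 3 (Prtn3, 4.17 ± 0.75), and these 2 fell with anti-IL-36R (Gzmb -1.89 ± 0.52, Prtn3 -2.20 ± 0.53).

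Of the interleukin-36 genes, which share the MyD88 pathway, few were tested. In IMQ skin with PBS 0 of 3 tested passed (Il1f5 -0.14, Il1f9 -0.52 and Il1rl2 0.18 on the log2 scale), and in DSS colon with PBS the receptor gene Il1rl2 rose (2.16 ± 0.51, adjusted p = 0.0023) while Il1f9 was at -0.41 (adjusted p = 0.29).

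The closest patterns across libraries were ranked by Pearson r of log2 CPM over 23 skin or 26 colon libraries, a description in which groups, depth and tissue makeup are shared. In skin Il1b was nearest to Cxcl2 (r = 0.955), Upp1 (0.944) and Ccl3 (0.941), Il33 to Akr1b8 (0.964), Prelid2 (0.960) and Thbd (0.955), and Il18 to Slc46a2 (0.969), Aif1l (0.961) and Susd2 (0.957). Casp1 was nearest to Casp4 (0.893) there, and Il18r1 to Ccl27a (0.776), Cd3g (0.771) and Itgae (0.770). In colon Il1a was nearest to Nlrp3 (0.972), Osm (0.966) and Csf2rb (0.953), Il1b to Clec4e (0.979), Slc15a3 (0.977) and Csf2rb (0.975), and Il1r2 to Lcn2 (0.972), Mmp8 (0.959), which is also among the neutrophil markers, and Cd300lf (0.959). Il1rl1 was nearest to Lama1 (0.977), Mmp10 (0.963) and Inhbb (0.949), Il33 to Tgm1 (0.933), and Casp1 to Ces2e (0.899).

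Among the 10 genes themselves, Il1a and Il1b had r = 0.969 in colon and 0.294 in skin, where Il1a was nearer to Il1rn (0.810) and Il1b to Il33 (0.892). Il18 ran against Il1b (-0.813) and Il33 (-0.723) in skin, and Casp1 against Il33 (-0.817) in colon.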

How the data were processed

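mRNA was purified and made into strand-specific libraries, per the labels' protocols. The authors deposited expected counts per gene; the submitters' processing notes name RSEM and mm10, and no version is given in the sources used here. Expected counts can share a read among genes, and 15.89% to 17.94% of values per library were not whole (tolerance 1e-06). Values were rounded to whole numbers. The 4 groups of a tissue entered 1 quasi-likelihood fit in edgeR 4.0.16 (R 4.3.3), after filterByExpr and TMM scaling, with Benjamini-Hochberg adjustment over all genes of a comparison. "Rose" and "fell" mean an adjusted p under 0.05, and a standard error (SE) was taken as the size of the log2 change divided by the root of its F statistic. A fit of all 8 groups gave the differences between tissues. CPM use TMM-adjusted totals, and log2 CPM a prior count of 2.

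The labels' numbers do not pair libraries, and replicates are numbered in accession order. In skin the numbers run in blocks. The first holds all water libraries and PBS replicates 1 to 3, the next only anti-IL-12p40, and the last all anti-IL-36R and PBS replicates 4 to 6. No control lies in the anti-IL-12p40 block, and no water library in that of anti-IL-36R. Antibody and block therefore cannot be told apart in the skin comparisons of anti-IL-12p40, nor in those of either antibody with water. The labels do not say what the blocks stand for, and the split of the PBS replicates below matches them. Alternatives were DESeq2 1.42.0 size factors and Wald test, limma 3.58.1 voom with sample weights, no filter, the compared groups alone, each library left out, and the skin PBS replicates 1 to 3 or 4 to 6 alone. Leaving out 2 colon libraries together was chosen after seeing the data. The genes and lists were chosen with earlier results of these data known. Named genes are the 10, up to 4 passing genes of a pathway list by adjusted p, all IL-36 genes tested, and up to 3 nearest genes by r (mean log2 CPM at least 1, predicted and clone-named genes left out); further genes are named where a count of 1 or a marker calls for it. Levels per kilobase use merged GENCODE exons. Symbols came from RefSeq for 24375 of the 24475 IDs. Figures used matplotlib 3.10.9 in Python 3.11.15.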

Additional observations from a re-analysis of the deposited data

Results flagged for a closer look

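In 10 of 70 gene and group combinations tested, 1 library stood far from the others of its group, where chance gives about 1 in 20. Colon water replicate 4 accounted for 5 of them, with 13.9 CPM of Il1rn, 33.8 of Il1r1, 1.34 of Il1r2, 33.4 of Il18 and 5.80 of Il1rl1. In anti-IL-36R skin, replicate 7 stood apart with 226 CPM of Il1rn and 30.2 of Il18. In IMQ skin with PBS, replicate 1 did so with 51.1 CPM of Il18, and replicate 5 with 55.3 CPM of Il1r2 and 23 of Casp1.

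The response in skin differed from that in colon for 13 gene and comparison pairs, by a test of the difference itself in edgeR. For disease against water the skin response minus the colon response was -7.83 for Il1a, -6.07 for Il1r2, -5.34 for Il1rl1, -4.31 for Il1b, -2.65 for Il18r1 and -1.62 for Il1r1 on the log2 scale. For anti-IL-36R it was 4.68 for Il1a, 3.73 for Il1r2, 2.23 for Il1rl1 and 1.44 for Il1r1. For anti-IL-12p40 it was 3.39 for Il1a, 2.46 for Il1r2 and 2.24 for Il1rl1.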

How the results depend on the processing

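Of 56 calls on the 10 genes, 27 held under all alternatives run and 29 were lost under at least 1. No paired analysis was possible because the labels give the libraries no shared replicate numbers. Expected counts of Il18r1, Il1rl1 and Il1rn are less certain, and Il1a in water colon rests on 7 counts.

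With limma-voom the number of genes called was 3 for anti-IL-36R and 0 for anti-IL-12p40 against PBS in colon, 3 for anti-IL-36R against PBS in skin, 1 for either antibody against water in skin, and 2 (anti-IL-36R) and 0 (anti-IL-12p40) for the tissue differences. With DESeq2 it was 2 for anti-IL-36R in skin and 6 for anti-IL-12p40 in colon, against PBS. With the compared groups alone it was 0 for anti-IL-12p40 against PBS in colon and 1 for either antibody against water in skin. With no filter it was 1 for anti-IL-12p40 against water in skin. With skin PBS replicates 1 to 3 alone it was 0 for either antibody, and without both colon libraries that stood apart (chosen after seeing the data) 1 for anti-IL-12p40 against PBS. The cause was not tested. These counts, like those with single libraries left out and those in the Results, are given without the share of all genes called under the same alternative. They show how stable a count was and are no result about these genes against others.

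Leaving out single libraries, the number called in skin ran from 4 to 7 for IMQ, 1 to 3 for anti-IL-36R and 2 to 3 for anti-IL-12p40 against PBS, and 0 to 4 and 0 to 2 against water. In colon it ran from 8 to 8 for DSS, 6 to 7 and 1 to 6 against PBS, and 2 to 5 and 5 to 6 against water, in the same antibody order. For tissue differences it ran from 6 to 7 for disease, 2 to 6 for anti-IL-36R and 2 to 3 for anti-IL-12p40.

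All values that changed sign belonged to genes that had not passed. With limma-voom they were 0.011 for Il1r2 under IMQ, 0.048 for Il1rn with anti-IL-36R, -0.20 for Il33 between antibodies and 0.035 for Il1r2 with anti-IL-36R against water in skin. In colon they were 0.075 for Casp1 under DSS and -0.11 for Il18 with anti-IL-12p40 against water. For tissue differences they were -0.63 for Il33 and 0.063 for Casp1 with anti-IL-36R, and -0.54 for Il1b and -0.88 for Il33 with anti-IL-12p40. With skin PBS replicates 1 to 3 alone, Il1r1 (0.13) and Casp1 (-0.056) changed sign with anti-IL-36R and Il1a (-0.24) with anti-IL-12p40. With replicates 4 to 6 alone, Il1r2 under IMQ (0.15), Il1rn (0.23), Il1a (0.21) and Il1r2 (-0.23) with anti-IL-36R, and Il1rn (0.0091) and Casp1 (0.047) with anti-IL-12p40 did. Without both colon libraries, Il18 with anti-IL-12p40 was -0.17 against water and -0.076 against PBS.

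Leaving out single libraries also changed signs. The log2 values then ran as follows by comparison. For anti-IL-12p40 against PBS in skin they ran from -0.065 to 0.31 for Il1a. For anti-IL-36R against anti-IL-12p40 in skin they ran from -0.052 to 0.13 for Il18, from -0.052 to 0.85 for Il1b and from -0.073 to 0.36 for Il33. For anti-IL-12p40 against water in skin they ran from -0.16 to 0.40 for Il1rl1 and from -0.47 to 0.0060 for Il18. For anti-IL-36R against PBS in skin they ran from -0.19 to 0.090 for Il1r1, from -0.051 to 0.27 for Il1r2, from -0.19 to 0.16 for Il1rn, from -0.32 to 0.16 for Il1a and from -0.051 to 0.11 for Casp1. For anti-IL-36R against water in skin they ran from -0.45 to 0.028 for Il18, from -0.36 to 0.21 for Il1r2 and from -0.47 to 0.058 for Il1rl1. In IMQ skin with PBS against water they ran from -0.41 to 0.16 for Il1r2. For anti-IL-36R against anti-IL-12p40 in colon they ran from -0.038 to 0.15 for Casp1 and from -0.11 to 0.12 for Il1rn. For anti-IL-12p40 against water in colon they ran from -0.17 to 0.11 for Il18 and from -0.076 to 0.12 for Casp1. In DSS colon with PBS against water they ran from -0.40 to 0.12 for Il18. For anti-IL-12p40 against PBS in colon they ran from -0.082 to 0.44 for Il18. For the tissue difference with anti-IL-12p40 they ran from -0.25 to 0.98 for Il1b and from -0.39 to 0.37 for Il33.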
